A study of Mus musculus with 12 samples.

Results

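The genes described here are 7 genes of the major histocompatibility complex (MHC) class II route of antigen presentation in mouse skeletal muscle: Cd74, H2-Aa, H2-Ab1, H2-Eb1, H2-DMa, H2-DMb1 and Ciita. They were taken by symbol from the platform annotation, which gives them 16 of the 45101 probe sets on the array. The family was chosen by results of these same arrays, because H2-Eb1 varied widely between arrays without growth hormone (GH) and Cd74 was lower with it. Those values, and every comparison of arrays with GH against arrays without it, are therefore given for the 7 genes as a description and without a test. Of the 16 probe sets, 12 had a mean log2 value above the intensity filter of 6.253, and 14 belong to 1 gene only. H2-DMb1 is measured only by 2 probe sets that H2-DMb2 shares, so 6 of the 7 genes entered the test across 12654 genes.

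The study measured total RNA of skeletal muscle on 1-colour Affymetrix arrays from 12 mice, in 4 groups of 3: wild type (WT) without GH, mice lacking Stat5a and Stat5b (KO) without GH, GH-treated WT and GH-treated KO. STAT5A and STAT5B are transcription factors activated by the GH receptor. The labels give no GH dose or duration, no strain, sex or age and no Cre driver or promoter. One protocol label says that blood cells carry the deletion, while the series title is about skeletal muscle, and an animal number of its own in each title is the basis for treating arrays as separate animals. Arrays are numbered here within their group in the order of deposit, and a number pairs no samples.

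MHC class II molecules are pairs of an alpha and a beta chain that show peptides from outside the cell to CD4+ T cells. They are made mainly by dendritic cells, B cells and macrophages. The invariant chain, encoded by Cd74, fills the groove of a new class II molecule and guides it to endosomes, where proteases degrade it and the H2-DM protein exchanges the last fragment for a peptide. Ciita, a co-activator that does not bind DNA itself, switches the genes on through factors that sit on the X and Y boxes of their promoters, and interferon gamma is its best known inducer.

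Promoter sequences from RefSeq on build GRCm38.p6 were examined for 4 of the 7 genes, with 2 promoters for H2-DMa. Cd74 was left out of this search, and no promoter was available for H2-Ab1 and Ciita. The sequences are shown because X and Y boxes are the shared control element of the family. The letter strings were searched on both strands from 250 bases before to 50 after each start: ACNGATG for the end of the X box, TGACGTCA for the X2 box and ATTGG for the Y box, none of which overlaps another in the windows shown. The 60-base windows below read 5′ to 3′ on the gene's own strand, with the matched letters in capitals.
H2-DMb1, chr17:34153082-34153141, plus strand: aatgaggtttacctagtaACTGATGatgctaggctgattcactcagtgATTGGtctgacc
H2-Aa, chr17:34287860-34287919, minus strand: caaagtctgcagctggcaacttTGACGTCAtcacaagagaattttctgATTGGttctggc
H2-Eb1, chr17:34305760-34305819, plus strand: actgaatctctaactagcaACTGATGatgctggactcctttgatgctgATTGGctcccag
Each window lies upstream of the gene's start, and the X or X2 letters begin 30, 26 and 29 bases before the Y letters. Of 32851 promoters of the same length, 9.85% hold the X letters, 1.79% the X2 letters and 37.4% the Y letters, and 102 (0.31%) hold X or X2 letters 15 to 40 bases before Y letters. H2-DMb1 and H2-Eb1 have the X letters, and H2-Aa has the X2 letters in their place, with a match to the X letters only farther upstream. Neither H2-DMa promoter holds the spaced pair in this window.

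The arrays differed in technical measures that run with GH. The geometric mean of 12 poly-A control probe sets, which read transcripts spiked into the RNA, lay at 151 to 173 on the 6 untreated arrays and at 487 to 533 on the 6 GH-treated ones, 3.16-fold higher (exact permutation test, 2-sided p = 0.0022, adjusted over 3 measures p = 0.0032). The 3 prime over 5 prime ratio of beta actin lay at 0.805 to 0.864 on untreated and 0.887 to 1.01 on GH-treated arrays (exact permutation p = 0.0022, adjusted over the same measures p = 0.0032). The same ratio of Gapdh overlapped between them (exact permutation p = 0.156). Any labelling batch coincides with GH here, so that their effects cannot be told apart. Among the arrays without GH, WT 1 and KO 3 had the lowest limma array weights of all 12, 0.319 and 0.421. Stat5b signal in KO was 15.2% of WT without GH and 20.2% with it, and Stat5a was 40.6% and 40.2%. The 9 skeletal muscle markers had a median percentile of 99.97 among genes, while the median percentile of 16 macrophage markers was 67.6, of 8 dendritic cell markers 37.0 and of 7 B cell markers 33.5. Of these, the macrophage markers Cx3cr1 and Aif1, 3 dendritic cell markers (Itgax, Xcr1 and Ccr7) and 3 B cell markers (Cd79a, Cd79b and Ms4a1) lay below the intensity filter.

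The invariant chain was the brightest of the 7 genes and lower on every array with GH than on any array without it. Cd74 signal was 3865, 4423 and 5443 in WT 1, 2 and 3, and 5637, 4849.8 and 5982 in KO 1, 2 and 3. With GH it was 2186, 1944 and 1919 in WT and 1716, 1926 and 1757 in KO. The 6 arrays with GH reach at most 2186, below the 3865 of the lowest array without it, so the groups do not overlap. Mean signal with GH was 44.1% of that without it in WT and 32.8% in KO. As differences of log2(signal + 25) these were -1.16 ± 0.115 (SE) for WT and -1.59 ± 0.115 for KO. In bulk muscle, fewer cells that make a transcript and less of it per cell cannot be told apart.

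The peptide exchange factor followed the same order at a lower level. H2-DMa, the alpha chain of H2-DM, gave 309.6, 293.7 and 313.8 in WT, 414, 305 and 317 in KO, 145, 187 and 186 in GH-treated WT and 200.02, 190.1 and 174 in GH-treated KO. No array with GH reached the lowest array without it, and the log2 differences were -0.75 ± 0.149 in WT and -0.79 ± 0.149 in KO. Its other probe set, 1459872_x_at, lay below the filter, with a signal no higher than 26.5 on any array.

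The beta chain of H2-DM was read together with H2-DMb2 by both of its probe sets. On 1449580_s_at the signal was 179, 159.9 and 172 in WT, 160.3, 193 and 361 in KO, 63.3, 35.4 and 80.7 in GH-treated WT and 156, 123 and 106 in GH-treated KO. These 6 arrays with GH were also below the 6 without, with GH-treated KO between GH-treated WT and both untreated groups. On the dimmer 1418638_at the signal was 106, 81.5 and 53.8 in WT, 120.4, 56.1 and 56.3 in KO, 45.2, 30.1 and 54.0 in GH-treated WT and 82.1, 47.7 and 63.4 in GH-treated KO, and the groups overlap. The log2 differences with GH were -1.24 ± 0.266 in WT and -0.72 ± 0.266 in KO on the first, and -0.61 ± 0.297 and -0.16 ± 0.297 on the second.

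**Figure D1:**
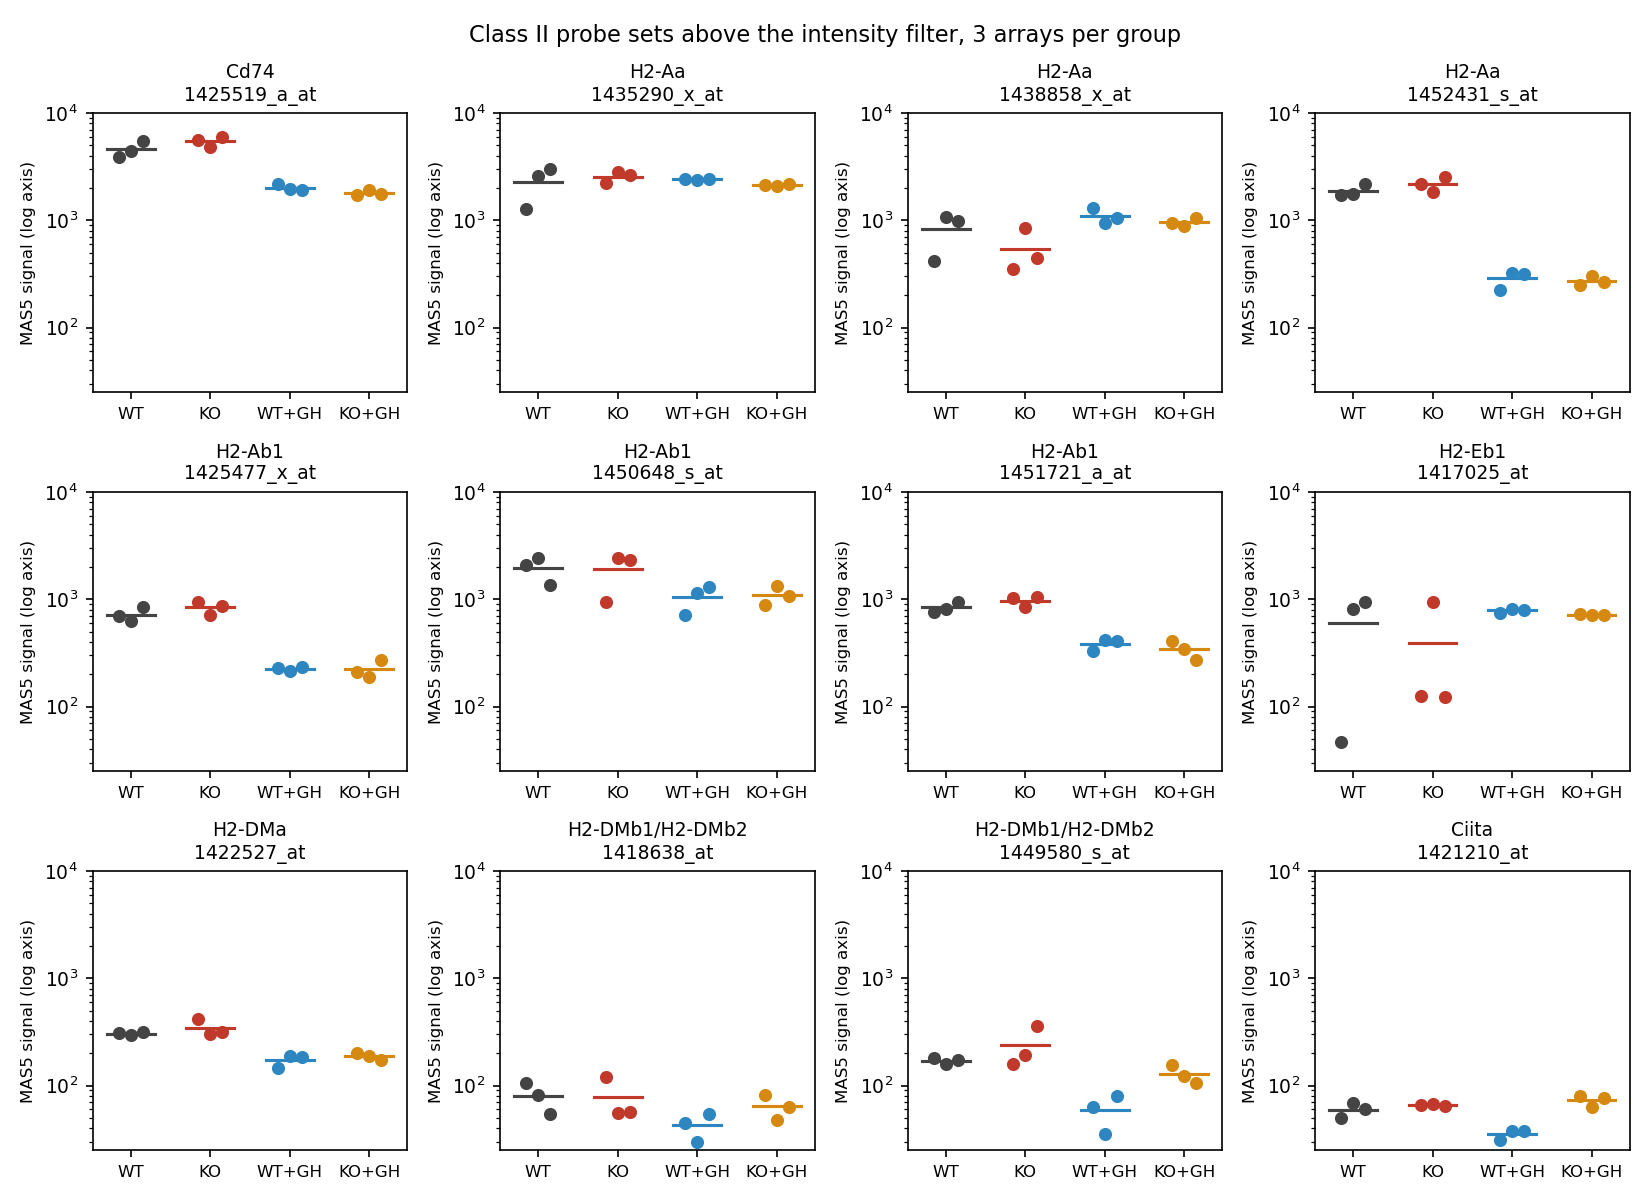
MAS5 signal (log axis) of the 12 class II probe sets above the filter in untreated WT and KO and GH-treated WT and KO. Each point is 1 array and each bar the mean of 3; the Cd74 points with GH all lie below those without, while H2-Eb1 spreads from 46.5 to 937 without GH and from 710.2 to 819 with it.

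The 3 H2-Aa probe sets above the filter, which read the alpha chain of the I-A molecule, disagreed with each other. On 1452431_s_at the signal was 1724, 1750.2 and 2162 in WT, 2168, 1830.4 and 2549.9 in KO, 222, 324 and 315 in GH-treated WT and 251, 301 and 266 in GH-treated KO. Every array with GH was far below every array without it: mean signal with GH was 15.3% in WT and 12.5% in KO, the lowest share among the 12 probe sets, with log2 differences of -2.62 ± 0.152 and -2.88 ± 0.152. On 1435290_x_at, the brightest and the one that represents the gene in the fit, it was 1275, 2586 and 3026 in WT, 2213, 2798 and 2654 in KO, 2434, 2379 and 2414 in GH-treated WT and 2125, 2105 and 2175 in GH-treated KO. WT 1 was the lowest array, and the 3 arrays of GH-treated KO, though within 2105 to 2175, lay below all others but WT 1. The log2 differences with GH were 0.16 ± 0.229 in WT and -0.25 ± 0.229 in KO.

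On 1438858_x_at the H2-Aa signal was 420.2, 1064 and 993 in WT, 349, 841 and 444 in KO, 1316, 939 and 1045 in GH-treated WT and 951, 884 and 1040.0 in GH-treated KO. Here WT 1, KO 1 and KO 3 were low, and the other 9 arrays lay between 841 and 1316. The log2 differences with GH were 0.50 ± 0.339 in WT and 0.88 ± 0.339 in KO. The fourth H2-Aa probe set, 1443783_x_at, lay below the filter, at no more than 48.8. The sign of an H2-Aa difference with GH thus depends on the probe set. Averaging its 4 probe sets gave -0.49 in WT where the brightest gave 0.16, and centring each array on its median gave -0.03.

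H2-Ab1, the beta chain of I-A, was lower with GH on all 3 of its probe sets, and 2 of them showed no overlap. On 1425477_x_at the signal was 692, 623 and 848 in WT, 949, 717 and 872 in KO, 226, 216 and 234 in GH-treated WT and 211, 187 and 272 in GH-treated KO. On 1451721_a_at it was 760.4, 821 and 937 in WT, 1026, 844 and 1039 in KO, 328, 417 and 412 in GH-treated WT and 405, 343 and 273 in GH-treated KO. The log2 differences on these were -1.56 ± 0.153 and -1.08 ± 0.148 in WT, and -1.82 ± 0.153 and -1.45 ± 0.148 in KO.

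The brightest H2-Ab1 probe set, 1450648_s_at, varied more. Its signal was 2091, 2444 and 1347 in WT, 948, 2438 and 2339.9 in KO, 713, 1144 and 1315 in GH-treated WT and 883, 1339 and 1078 in GH-treated KO. KO 1 was the low array without GH here, at a level within the range with GH, so the groups overlap in KO. The log2 differences were -0.88 ± 0.376 in WT and -0.68 ± 0.376 in KO.

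H2-Eb1, the beta chain of the I-E molecule, has 1 probe set, and its spread between arrays without GH was the second highest of 12654 genes. The signal was 46.5, 809.8 and 934 in WT and 126, 937 and 122 in KO. With GH it was 749.9, 819 and 802 in WT and 732, 721 and 710.2 in KO. WT 1, KO 1 and KO 3 were low, and the other 9 arrays lay close together whatever their genotype or treatment. Class II and class I genes vary in sequence between H2 haplotypes, and the labels give neither strain nor haplotype. Whether these 3 mice carry the same H2 alleles as the others was not tested, so a low signal here cannot be read as less transcript. The standard deviation within groups on the log2 scale was 1.85 without GH and 0.0476 with it, where the median of all genes was 0.190 and 0.133. With GH the spread of H2-Eb1 stood at the 8.02 percentile of all genes.

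A group mean therefore describes H2-Eb1 without GH poorly. The log2 difference with GH was 1.08 ± 1.02 in WT and 1.43 ± 1.02 in KO. Without WT 1 the WT value was -0.14, which turns its direction. Without KO 3 the KO value was 0.97, without KO 1 it was 0.99, and without KO 2 it was 2.33.

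The same 3 arrays stood apart on other probe sets of the MHC region. After each group mean was subtracted, H2-Eb1 correlated over the 12 arrays with H2-Aa 1438858_x_at at r = 0.934 and with H2-Aa 1435290_x_at at r = 0.871, but with H2-Aa 1452431_s_at at r = -0.07. Its r with the H2-Ab1 probe sets was -0.19, 0.13 and 0.01, and with Cd74 0.23. The points share their arrays and rest largely on WT 1, KO 1 and KO 3, and no p is given. H2-Aa 1438858_x_at was low on all 3 of these arrays, while 1435290_x_at was low on WT 1 but gave 2654 on KO 3, near the 2798 of KO 2.

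Of all genes above the filter, the one most like H2-Eb1 was H2-Q10, a class I gene of the same complex best known from liver (r = 0.980 over 12 arrays). Its signal was 6.78, 335 and 238 in WT and 24.4, 270.2 and 10.1 in KO, low on the same 3 arrays, and 134 to 296 with GH. In the 6 arrays with GH alone r was 0.19. The next were Prrc2c, Mrps6, Ube2k and Pqbp1, with r from 0.930 to 0.949, none of them on chromosome 17. Most like the mean of Cd74, H2-Aa, H2-Ab1 and H2-Eb1 were Prrc2c (r = 0.965), Cyp2d13 (0.950), Crim1, Sncg and Ubn1.

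**Figure D2:**
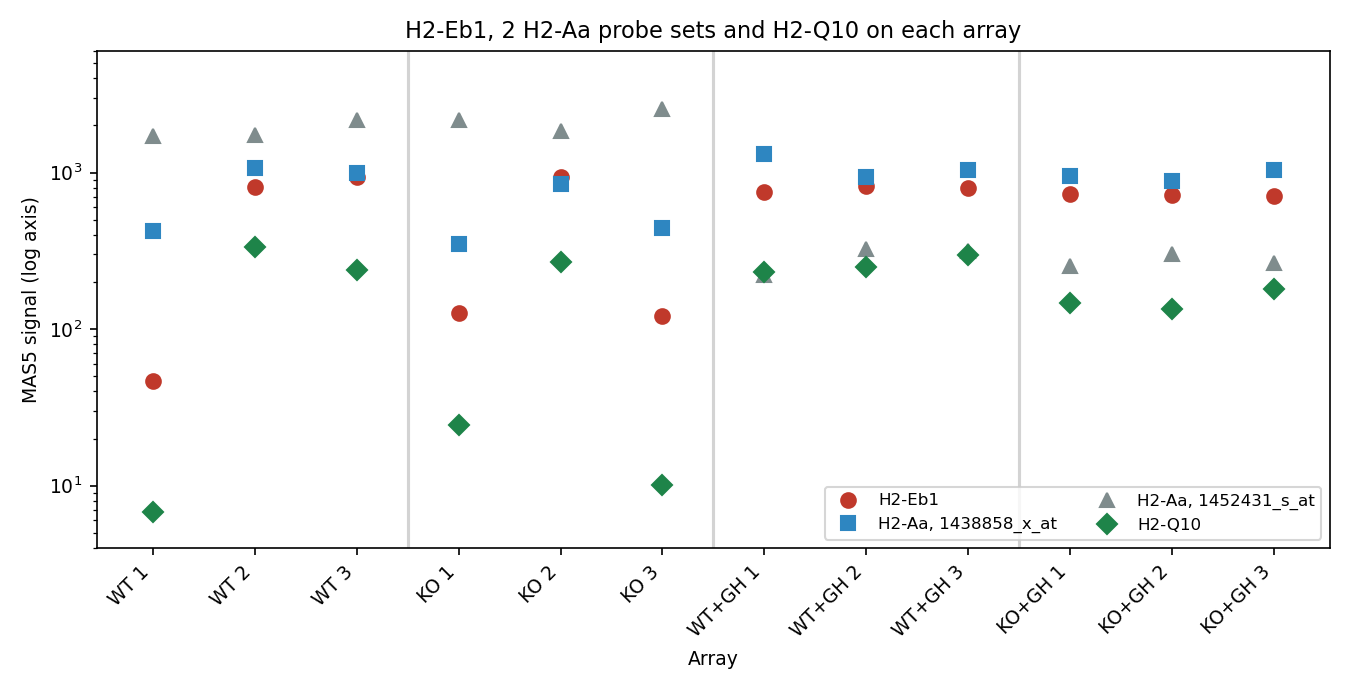
MAS5 signal (log axis) of H2-Eb1, H2-Aa on probe sets 1438858_x_at and 1452431_s_at, and H2-Q10 on each of the 12 arrays, 1 point per array. WT 1, KO 1 and KO 3 are low for H2-Eb1 (46.5, 126 and 122), H2-Aa 1438858_x_at and H2-Q10, and not for H2-Aa 1452431_s_at.

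Among 92 other genes of the H2 complex, 5 (5.43%) had an r with H2-Eb1 beyond 0.8 in either direction, against 2.89% of 12648 genes outside the family. They were H2-Q10, Notch4 (r = 0.848), Ring1 (0.821), Hspa1l (0.808) and Agpat1 (-0.898), an enzyme of phospholipid synthesis. Agpat1 was highest on the arrays where H2-Eb1 was low, at 2637 in WT 1, 2577 in KO 1 and 3002 in KO 3 against 2019 to 2158 on the other 3 arrays without GH.

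Some class I and I-E genes, chosen for mention after their values were seen, had the same order on their brightest probe set. The share of H2 complex genes with this order is not given here. H2-D1, a classical class I heavy chain, gave 13792, 15826 and 24325 on WT 1, KO 1 and KO 3, against 10069.7, 12068 and 11148 on WT 2, WT 3 and KO 2. H2-K1, the other classical heavy chain, gave 15357, 17221 and 20194 against 10555, 13516 and 12249.8. H2-Ea, the alpha partner of H2-Eb1, was dim, at 117, 78.3 and 107 on those 3 arrays and 53.5 to 69.9 on the other 3 on its brightest probe set.

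Among the arrays without GH, WT 1 and KO 1 had the highest summed macrophage and dendritic cell marker signals, and KO 3 did not. The summed macrophage marker signal was 21105 on WT 1, 18570 on KO 1 and 15451 on KO 3, against 14309.7 on WT 2, 17293 on WT 3 and 13572 on KO 2, while the summed dendritic cell signal was 1697, 1513 and 1270.4 against 1114, 1214 and 1343. The summed B cell signal, nearly all of it Ighm, was 17007 on KO 3 and 4414 to 9332 on the other 5. Their part in the H2-Eb1 values was not tested.

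Ciita was dim, near the filter, and had the largest difference between genotypes with GH among the 6 tested genes. Its brightest probe set, 1421210_at, gave 49.4, 68.4 and 59.9 in WT, 66.4, 66.6 and 64.3 in KO, 31.0, 37.4 and 37.6 in GH-treated WT and 79.3, 62.9 and 76.3 in GH-treated KO. WT with GH was the low group, and its arrays did not overlap those of any other group. With GH the KO mean was 206% of WT. The log2 differences with GH were -0.48 ± 0.234 in WT and 0.10 ± 0.234 in KO. The other 2 Ciita probe sets lay below the filter, and neither showed a gap between the groups with GH: 1421211_a_at gave 7.84 to 52.1 in GH-treated WT and 8.67 to 36.4 in GH-treated KO.

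By overlap of arrays, and with no test, 8 of the 12 class II probe sets were lower with GH in WT, as were 16.3% of all 27022 probe sets. In KO 7 were lower and 1 higher, as were 21.6% and 22.5%. Across both genotypes, 6 of 12 were lower on all 6 arrays with GH than on all 6 without, where 7.44% of probe sets were: Cd74, H2-Aa 1452431_s_at, H2-Ab1 on 2, H2-DMa and 1449580_s_at. These counts describe how the family was picked.

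**Figure D3:**
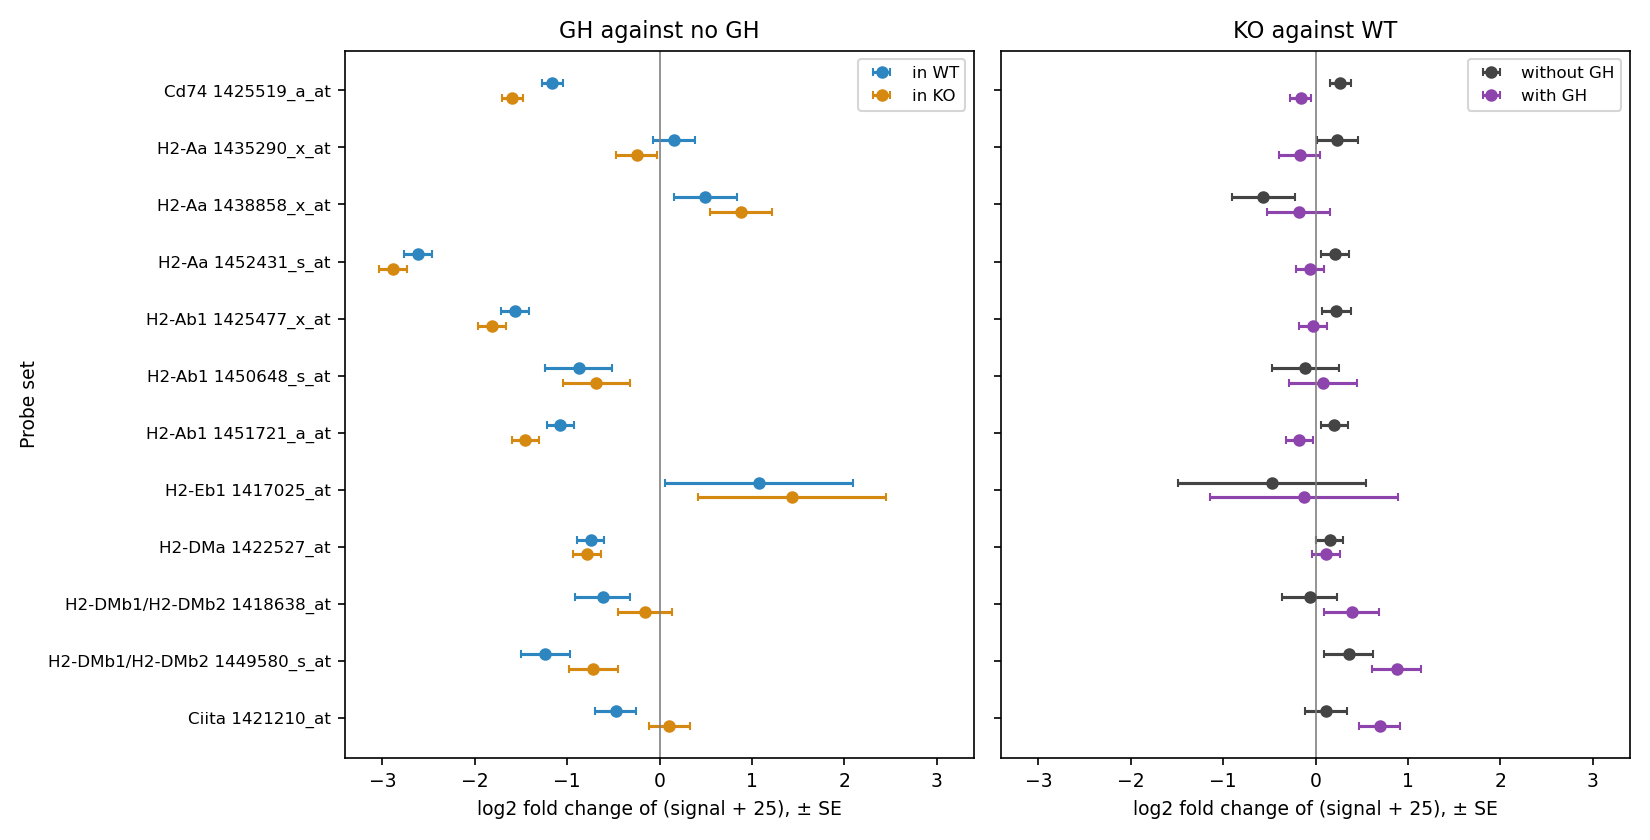
Log2 fold change of (signal + 25) with its standard error for the 12 class II probe sets: GH against no GH in WT and KO (left) and KO against WT without and with GH (right). With GH, H2-Aa 1452431_s_at is at -2.62 and -2.88 and H2-Aa 1435290_x_at at 0.16 and -0.25; on the right most points lie within 0.5 of 0.

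The comparison of KO with WT asks whether the loss of Stat5a and Stat5b went with other class II levels, and it was not used to choose the genes apart from H2-Eb1 without GH. No class II gene tested passed limma's threshold (Benjamini-Hochberg adjusted p over 12654 genes, 0.05) in any genotype comparison. Without GH, 0 of 5 genes tested passed, where 1.45% of all genes did. At an unadjusted p under 0.05 there was 1, Cd74, higher in KO by 0.27 ± 0.115 (adjusted p = 0.366), as were 11.7% of all genes. The other 4 differences lay between -0.11 and 0.24, and eBayes without trend and robust settings also called 0. H2-Eb1 differed by -0.48 ± 1.02, given as a description only.

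With GH, 0 of 6 class II genes passed limma's threshold, where 4.53% of all genes did, and 1 had an unadjusted p under 0.05, against 16.5% of all genes. That gene was Ciita, 0.70 ± 0.234 higher in KO (adjusted p = 0.122). With limma's eBayes without mean trend and robust settings its adjusted p was 0.00373. With only the WT and KO arrays with GH in the fit, H2-Aa passed at -0.17 ± 0.0487 (limma adjusted p = 0.0487). The within-group standard deviation of that probe set with GH was 0.0207 on the log2 scale. H2-Eb1 is counted among the 6 and differed by -0.13 ± 1.02. That error is set by the spread of the arrays without GH that share the fit. The same spread was used to choose the family, so this test could not decide whether H2-Eb1 differed. For H2-Eb1 the 3 arrays of KO with GH were below the 3 of WT with GH, a separation for which the smallest exact permutation p at this size is 0.1.

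Averaged over both treatments, 0 of 5 genes passed limma's threshold (5.34% of all genes did) and 1 had an unadjusted p under 0.05 (17.4% of all genes). It was Ciita again, higher in KO by 0.40 ± 0.166 (adjusted p = 0.207, and 0.0112 without trend and robust settings). The interaction, which compares the GH difference in KO with that in WT, passed for 0 of 4 genes tested, with 0 at an unadjusted p under 0.05. The background there was 0.933% adjusted and 10.4% unadjusted, and eBayes without trend and robust settings also called 0. The lowest adjusted p was 0.582, for Ciita (0.58 ± 0.331). For Cd74 the interaction was -0.43 ± 0.162, given without a test.

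Read by probe set, the closest to the threshold was the shared H2-DMb1 and H2-DMb2 probe set 1449580_s_at, higher in GH-treated KO by 0.88 ± 0.266 (limma adjusted p = 0.0848 over 27022 probe sets). Of the 12 probe sets with GH, 2 were higher and 2 lower in KO with no overlap between arrays, where 13.4% and 15.5% of all probe sets were. Without GH none was, where 5.67% and 6.95% were.

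The rest of the route was read from 73 genes in 8 lists, of which 63 were tested. They were chosen with results of these arrays known. With GH in WT 4 of the 63 rose and 13 fell, where 7.33% of all genes rose and 11.8% fell by limma. With GH in KO 6 rose and 9 fell, where 8.93% rose and 15.4% fell. Both GH comparisons rest on arrays whose median signal differed, 97.4 to 102 with GH and 79.3 to 92.4 without. Centring each array on its median moved the median of all genes by -0.18 in both genotypes, and the share of calls that were higher from 38.4% to 11.1% in WT and from 36.7% to 13.3% in KO. The pathway genes that fell then numbered 22 in each.

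Among the genes that load and trim class II, 3 of 8 fell and 1 rose with GH in WT. In KO 0 of 8 passed limma (2 at an unadjusted p under 0.05, 0 without trend and robust settings). Lgmn, an endosomal protease that cuts the invariant chain, gave 1919 ± 296 signal units (SD, n = 3) in WT, 2457 ± 132 in KO, 1179 ± 62.2 in GH-treated WT and 2177 ± 40.4 in GH-treated KO. It fell by 0.68 ± 0.0978 with GH in WT (limma adjusted p = 0.000235), and the difference of -0.17 in KO did not pass. With GH it was higher in KO than in WT by 0.87 ± 0.0978 (limma adjusted p = 5.31e-05), and the interaction was 0.51 ± 0.138 (limma adjusted p = 0.134). Ctsl and Ifi30, a cathepsin and a thiol reductase, fell by 0.25 and 0.32 in WT, and Sppl2a, which clears the last invariant chain stub, rose by 0.48. The Sppl2a call was lost without WT 3 with GH (limma adjusted p = 0.0561) and with arrays centred on their median (0.0928). The Ctsl call was lost without WT 2, WT 3, WT 2 with GH or WT 3 with GH (0.0621 to 0.0977), and the difference averaged over its probe sets was 0.020. The Ifi30 call was lost on leaving out 1 array in 8 of the 12 cases (limma adjusted p from 0.0506 to 0.142).

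The other class II chains were dim, and 0 of 3 tested passed limma with GH in either genotype (1 in each at an unadjusted p under 0.05, 0 without trend and robust settings). Among the factors that bind class II promoters, 0 of 10 passed limma with GH in WT (3 at an unadjusted p under 0.05, 0 without trend and robust settings) and 1 of 10 in KO, the acetyltransferase Ep300 (0.32 ± 0.101, limma adjusted p = 0.0310), which did not pass with arrays centred on their median (limma adjusted p = 0.270), nor without KO 1, KO 2, KO 1 with GH or KO 2 with GH (0.0758 to 0.136). In KO against WT 0 of 10 passed limma in either treatment, with 2 without GH and 1 with it at an unadjusted p under 0.05 and 0 without trend and robust settings.

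Of 11 genes on the interferon gamma route to Ciita, 2 rose and 2 fell with GH in WT, and 4 rose and 1 fell in KO. The receptor chain Ifngr1 rose by 0.40 in WT and 0.68 in KO, and the kinase Jak1 by 0.37 and 0.42. With arrays centred on their median neither passed in WT (limma adjusted p = 0.143 and 0.0772), and Ifngr1 in WT was lost without WT 2, WT 1 with GH or WT 3 with GH (0.0562 to 0.0864). The other chain, Ifngr2, fell by 0.40 and 0.41 on its brightest probe set, and did not pass on the mean of its probe sets (adjusted p = 0.168 and 0.599). Irf8, a transcription factor of macrophages and dendritic cells, rose by 1.06 ± 0.191 with GH in KO. Socs1, a feedback inhibitor of JAK kinases, fell by 0.86 ± 0.181 with GH in WT. Irf1, which acts on the Ciita promoter, was 0.37 ± 0.0919 higher in GH-treated KO (limma adjusted p = 0.0290) and 0.33 ± 0.0650 higher averaged over treatments (limma adjusted p = 0.00591). The first of these calls was lost on leaving out any 1 of the 6 arrays with GH, with adjusted p-values from 0.0551 to 0.129.

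Of the genes that interferon gamma induces, 0 of 7 passed limma with GH in each genotype (1 in WT and 0 in KO at an unadjusted p under 0.05, 0 without trend and robust settings). The median log2 difference was 0.06 in WT and -0.12 in KO. Gbp6, an interferon-induced GTPase, was higher in KO by 0.63 ± 0.148 without GH (limma adjusted p = 0.0486) and by 0.49 ± 0.104 averaged over treatments (limma adjusted p = 0.0107). The first call was lost under 15 alternatives, among them leaving out 1 array in 10 of the 12 cases (limma adjusted p from 0.0693 to 0.146).

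The class I pathway, which shows peptides from inside the cell, was lower with GH in more of its genes. Here 6 of 14 fell in WT and 7 of 14 in KO, with 0 rising, where 11.8% and 15.4% of all genes fell. The medians were -0.36 in both genotypes against -0.06 for all genes. On the brightest probe set, H2-K1 fell by 0.74 ± 0.157 in WT and 1.24 ± 0.157 in KO, and H2-D1 by 1.02 ± 0.206 and 1.47 ± 0.206. The probe sets of each of these genes disagreed in sign. Over 4 of H2-K1 the log2 differences ran from -1.997 to 0.054 in WT and from -1.711 to 0.591 in KO. Over 7 of H2-D1 they ran from -1.015 to 0.423 in WT and from -1.512 to 0.884 in KO. B2m, the shared light chain, fell by 1.02 ± 0.166 in KO, and Psmb9, an immunoproteasome subunit, by 0.82 ± 0.182. Without trend and robust settings 4 passed in WT and 5 in KO. By the mean of probe sets the WT calls of H2-D1 and Pdia3, a chaperone of class I loading, were lost (limma adjusted p = 0.143 and 0.530). The WT calls of B2m, Psmb10 and Tap2 were lost under 8, 7 and 4 of 23 alternatives, and the KO calls of Psmb8 and Tap2 under 13 and 11. Those of H2-K1 held in both genotypes under all 22 run for it. In KO against WT 0 of 14 passed limma in any of the 4 genotype comparisons, with 4 without GH, 0 with GH, 3 for the mean and 1 for the interaction at an unadjusted p under 0.05, and 0 without trend and robust settings.

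Of 5 ligands and partners of CD74 tested, 1 fell with GH in each genotype, where 11.8% and 15.4% of all genes fell. The list medians were -0.03 in WT and -0.24 in KO. Cxcr4 was the gene that fell, by 1.68 ± 0.225 in WT and 1.06 ± 0.225 in KO. In GH-treated KO against GH-treated WT, 1 of the 5 passed, where 4.53% of all genes did. This was the scavenging receptor Ackr3, lower in KO by 0.56 ± 0.112 (limma adjusted p = 0.00704). Among the 5 co-stimulatory genes, 1 rose and 1 fell with GH in WT, and 1 rose in KO, where 7.33% and 8.93% of all genes rose. Icam1 rose by 1.64 ± 0.178 in WT and 0.81 ± 0.178 in KO, and Cd83 fell by 0.68 ± 0.194 in WT. The Cd83 call was lost without WT 1, WT 1 with GH or WT 3 with GH (limma adjusted p = 0.0741, 0.0644 and 0.0591).

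**Figure D4:**
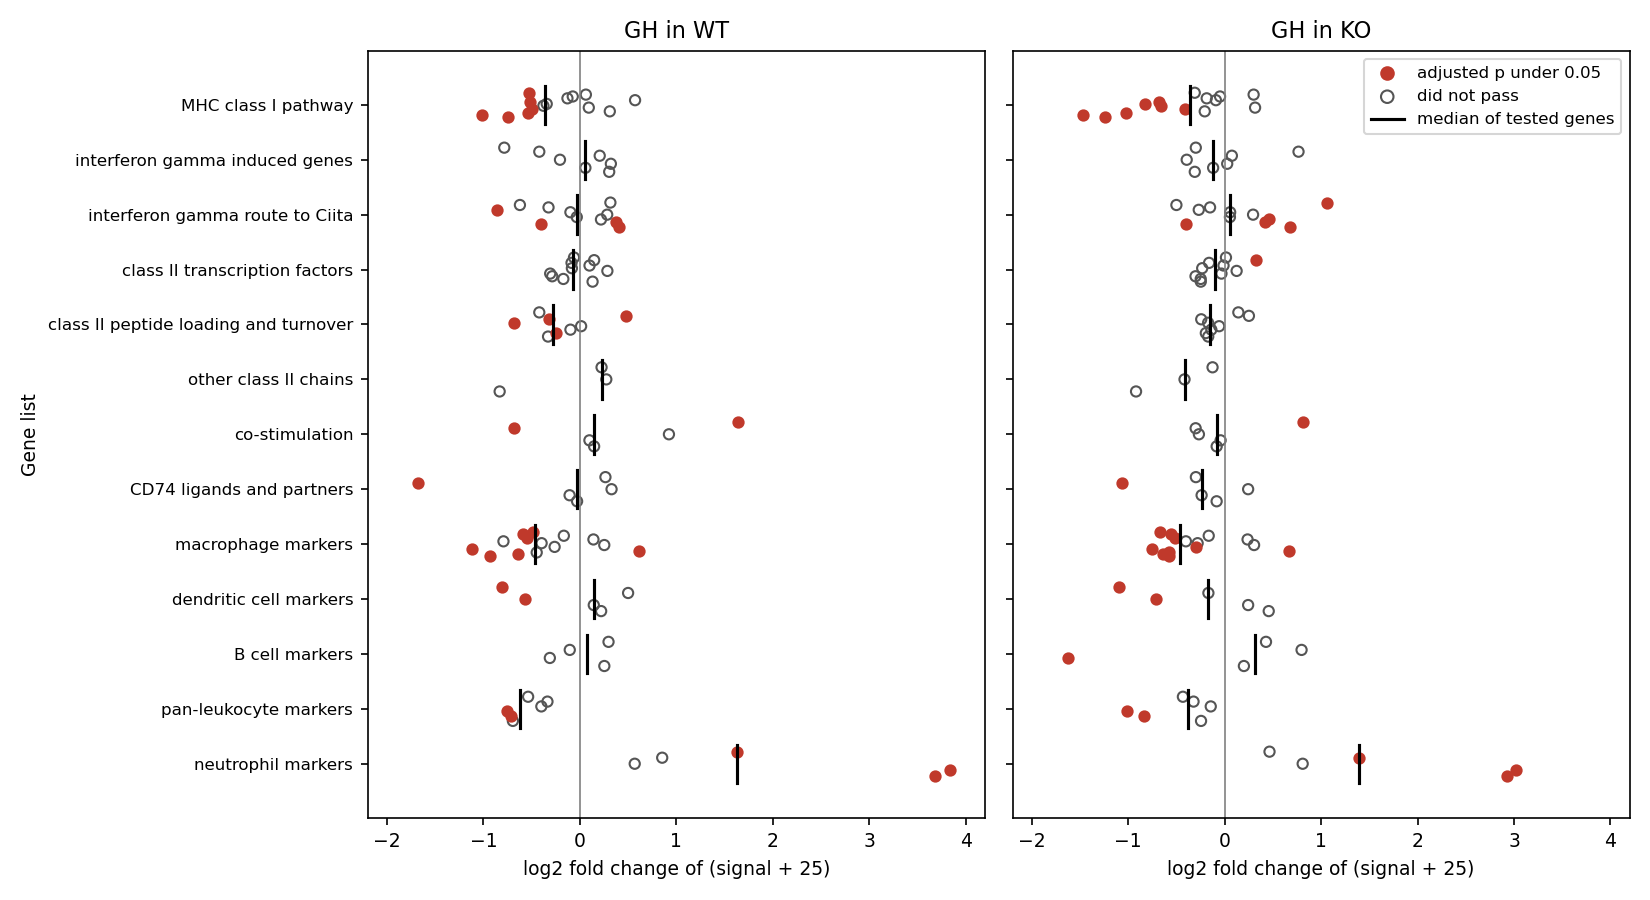
Log2 fold change of (signal + 25) with GH in WT (left) and KO (right) for the tested genes of 8 pathway lists and 5 leukocyte marker lists, 1 point per gene. Filled points have a limma adjusted p under 0.05 and bars are medians; class I genes have a median of -0.36 in both panels, and 3 neutrophil markers rose in each.

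Markers of leukocytes and of other cell types also changed with GH, where 7.33% of all genes rose and 11.8% fell in WT and 8.93% rose and 15.4% fell in KO. Of 14 macrophage markers 6 fell and 1 rose with GH in WT and 8 fell and 1 rose in KO. Csf1r, the receptor of macrophage growth factor, fell by 0.64 ± 0.118 in WT and 0.63 ± 0.118 in KO. C1qc, a complement chain, fell by 0.59 ± 0.0967 and 0.55 ± 0.0967, and Cd14 was the gene that rose. Their summed signal was 13572 to 21105 without GH and 11131 to 11804 with it, with no overlap.

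Of 5 dendritic cell markers 2 fell in each genotype, Clec10a by 0.81 ± 0.174 and 1.10 ± 0.174 and Cd209a by 0.57 ± 0.177 and 0.71 ± 0.177. The others did not share a fall: the list median was 0.14 in WT, with only these 2 below 0, and -0.17 in KO, with 3 below 0. The Cd209a call in WT was lost without WT 1, WT 3, WT 2 with GH or WT 3 with GH (limma adjusted p = 0.0645 to 0.146). The summed signal of the 8 dendritic cell markers with a probe set was 1114 to 1697 without GH and 854 to 1007 with it. The summed pan-leukocyte signal was 1696 to 2522 without GH and 1203 to 1382 with it. Of 4 B cell markers 0 passed limma in WT (0 at an unadjusted p under 0.05, 0 without trend and robust settings), and Ighm fell in KO, but not on the mean of its 11 probe sets (limma adjusted p = 0.329). Of 5 neutrophil markers 3 rose and 0 fell in each genotype, S100a9 by 3.83 ± 0.182 and 3.02 ± 0.182, and their summed signal was 319 to 473 without GH and 1524 to 2877 with it. Of 6 pan-leukocyte markers Coro1a and Laptm5 fell in each genotype, and the sign of Laptm5 turned without _x_at and _s_at probe sets. The 1 T cell marker tested did not pass limma in either.

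Among the other cell types, 3 of 6 endothelial markers fell in each genotype (Kdr, Cdh5 and Emcn) and 1 rose in WT (Cldn5). Of 5 fibroblast markers 2 fell in each, Lum in both, Col3a1 in WT and Dcn in KO, where the sign of Dcn turned on the mean of its probe sets. Of 3 adipocyte markers Adipoq fell in both. Of 9 skeletal muscle markers 7 fell in KO, with a median log2 difference of -0.41 for the list, and 0 passed limma in WT (3 at an unadjusted p under 0.05, 0 without trend and robust settings), with a median of -0.21. After quantile normalization Actn3, Myh4 and Mylpf turned direction in KO, Pvalb and Tnni2 did not pass, and Acta1 and Ckm did. The part of these cell types in the class II values was not tested.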

How the data were processed

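Total RNA of 12 mouse muscle samples was hybridized to 1-colour Affymetrix arrays. The deposited values are intensity, MAS5 signal on a linear scale, per the submitters' processing notes, and the version and scaling target are not given in the sources used here. Trimmed by 2% at each end, every array had a mean of 500.0, so values are scaled to 1 target. Precision is limited by having 3 arrays per group.

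Values were taken as log2(signal + 25). Each gene was represented by its brightest probe set with 1 symbol (34945 probe sets, 18193 genes), and genes were kept if that mean exceeded the 40th percentile over probe sets. limma 3.58.1 in R 4.3.3 fitted 1 mean per group over 12 arrays (8 residual degrees of freedom) with eBayes (trend, robust), and p-values are 2-sided, adjusted by Benjamini-Hochberg over 12654 genes. Probe sets were fitted likewise. "Rose" and "fell" mean past 0.05, ± gives standard errors unless marked SD, and fold changes of dim genes are understated by the pseudocount. Correlations are Pearson's r after subtracting group means.

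Named genes are the 7 members, at most 4 genes of a list, by p, among those past the threshold, and the 5 most like H2-Eb1 or the mean of 4 members. Genes named beyond this were chosen after their values were seen. The members and lists were chosen with earlier results of these data known. The method was tested on simulated data. Alternatives were the normalization, pseudocount, filter, probe set rule, arrays in the fit, variance model and leaving out each array. Those without WT 1 and KO 3 and by probe set were added after seeing the data.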

Additional observations from a re-analysis of the deposited data

Results flagged for a closer look

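Cldn5, a tight junction gene in the endothelial marker list, differed between the genotypes in its GH difference: the interaction of genotype and GH was -0.97 ± 0.186 on the log2 scale (limma adjusted p = 0.0173). With GH it rose by 0.60 ± 0.131 in WT (limma adjusted p = 0.00530) and differed by -0.37 ± 0.131 in KO, which did not pass (limma adjusted p = 0.0519). The interaction was lost with eBayes without trend and robust settings (limma adjusted p = 0.0681) and without WT 2, KO 2 or KO 3 with GH (0.0588, 0.0556 and 0.0523). Of the class II genes, 4 were tested for such a difference and 0 passed limma, with 0 at an unadjusted p under 0.05 and 0 without trend and robust settings.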

How the results depend on the processing

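No paired analysis was possible because the labels give no replicate numbers that groups share. The number of class II genes past the threshold stayed 0 under 23 of 23 alternatives for the interaction and 24 of 24 without GH. It was 1 with GH with only the groups compared (H2-Aa) and 1 without trend and robust settings (Ciita), and 1 for the mean genotype effect without trend and robust settings.

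The pathway genes past the threshold in KO against WT without GH (1) were 0 with arrays centred on their median, with a pseudocount of 5, without a filter and with only the groups compared, 2 with all probe sets of a gene averaged and 2 without WT 1 and KO 3, and 0 to 4 on leaving out 1 array. With GH (4) they were 7 with the mean of all probe sets, 12 with only the groups compared, 9 without WT 1 and KO 3, and 2 to 7 on leaving out 1 array. For the mean genotype effect (4) they were 7 with the filter at the 60th percentile, 9 without WT 1 and KO 3, and 4 to 8 on leaving out 1 array. With GH in WT, centring on the median gave 1 higher and 22 lower, and leaving out 1 array 2 to 5 higher and 8 to 14 lower, the lowest without WT 3 with GH. With GH in KO, centring gave 22 lower and leaving out WT 1 and KO 3 gave 15.

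Some genotype differences that did not pass in the fit over all 12 arrays changed sign with the probe set or array used. Those of Ciita kept their sign in all 4 comparisons under the alternatives run for it. So did those of Cd74 without GH and with GH, and of H2-DMa without GH and for the mean genotype effect. H2-Aa with GH passed with only the groups compared. Without trend and robust settings Ciita passed with GH and for the mean genotype effect. With all probe sets of a gene averaged, KO against WT was -0.080 for H2-Aa and 0.10 for H2-Ab1 without GH, and 0.048, -0.042 and -0.011 for H2-Aa, H2-Ab1 and H2-DMa with GH. The mean genotype effect was then -0.016 for H2-Aa and 0.032 for H2-Ab1, and the interaction 0.13 and -0.15. Without _x_at and _s_at probe sets H2-Ab1 was 0.20, -0.18, 0.013 and -0.38 in these 4 comparisons. Without WT 1 and KO 3, H2-Aa was -0.17 without GH and -0.17 for the mean genotype effect, where Cd74 was -0.035. Leaving out 1 array gave -0.14 to 0.48 for H2-Aa and -0.36 to 0.32 for H2-Ab1 without GH, and -0.17 to 0.26 for H2-Ab1 with GH. For the mean genotype effect it gave -0.0028 to 0.12 for Cd74, -0.15 to 0.15 for H2-Aa and -0.14 to 0.20 for H2-Ab1, and for the interaction -0.24 to 0.44 for H2-Ab1 and -0.14 to 0.090 for H2-DMa.

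With GH in WT, Ctsl was 0.020 with all probe sets averaged and Laptm5 0.090 without _x_at and _s_at probe sets. With GH in KO, Laptm5 was 0.24 in the latter, Dcn 0.14 and Myh4 0.13 in the former, and Actn3, Myh4 and Mylpf were 0.094, 0.013 and 0.053 after quantile normalization. Where no sentence names a reason, the cause was not tested.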
